A study of Rattus norvegicus with 22 samples.

Results

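Markers of tubular injury and dedifferentiation, 10 widely used genes, were followed in the polycystic rat kidney: Havcr1, Lcn2, Spp1, Clu, Vcam1, Cd44, Sox9, Krt7, Krt19 and Vim. They were chosen by name as known injury markers, and the rule uses no measured value, although earlier results of these data were known when they were chosen. Of these 10 genes, 9 were found by their rat Entrez identifiers among the 17334 genes of the deposited tables, and Krt7 was not analysed here. All 9 passed the filter on low counts, and the lowest count of any of them in any rat was 331, for Vcam1.

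RNA of the whole left kidney was sequenced in 22 male PKD/Mhm (Cy/+) rats aged 8 months, a strain that develops polycystic kidneys from a heterozygous missense mutation in Anks6, the gene of SamCystin. All 22 rats carried this mutation, so no group gives the level of a healthy kidney. There were 6 untreated rats, 12 rats injected with human adipose-derived stromal cells (ASC), of which 6 by the i.p. and 6 by the i.v. route, and 4 given the conditioned medium of these cells (ASC-derived CM), in each case for 6 months. Whether the untreated rats received a vehicle is not given in the sources used here, and the route of the medium is given as i.v. in the study's methods and as i.p. in its abstract. Total counts per rat ran from 12195682 to 14734772. Levels are given in TPM (a count scaled by the length of the transcript and then to the same total in each rat), so that genes can be compared with each other, and treatment effects as log2 fold changes of the counts. A rat is named by its animal number.

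The renal tubule loses transporters and other products of its differentiated state when it is injured, and surviving cells flatten, spread and divide before they redifferentiate. During this phase they make proteins that the resting tubule makes little of. Some are secreted into urine or interstitium (Lcn2, Spp1, Clu), some sit on the cell surface (Havcr1, Vcam1, Cd44), one is a transcription factor of the regenerating tubule (Sox9), and others build intermediate filaments (Krt19, Vim). Cells that fail to redifferentiate are known to keep Vcam1 and a program driven by NF-kappa-B. In polycystic disease many of these genes are also made by the cyst-lining epithelium. Slc34a1, the sodium-phosphate cotransporter of the proximal brush border, serves as the opposite marker, of the differentiated proximal tubule.

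Promoter windows from 250 bases before to 50 bases after the gene start were found in RefSeq (rat assembly GRCr8) for 6 of the 9 genes, Havcr1, Lcn2, Spp1, Vcam1, Cd44 and Vim. The windows were searched for 3 motifs on both strands, the NF-kappa-B consensus, AP-1 (TGANTCA) and the TATA box (TATAAA). They occurred in 4.18%, 7.33% and 14.2% of the 33469 promoter windows of the same length in the rat. The NF-kappa-B consensus matched in Lcn2 (first base at -242 from the gene start), Vcam1 (-93) and Vim (-193). TATAAA matched in Spp1 (-204), in Vim (-82) and, on both strands with overlap, in Vcam1. AP-1 matched in none of the 6 windows. The windows with an NF-kappa-B match are shown because this program is tied to the failed-repair state in which Vcam1 is known to persist. Capitals mark the matches to any of the 3 motifs. They lie at chr3:36081731-36082030 (minus strand, Lcn2), chr2:206742734-206743033 (minus strand, Vcam1) and chr17:81577011-81577310 (plus strand, Vim), and a match to letters is not a measured binding site.
Lcn2: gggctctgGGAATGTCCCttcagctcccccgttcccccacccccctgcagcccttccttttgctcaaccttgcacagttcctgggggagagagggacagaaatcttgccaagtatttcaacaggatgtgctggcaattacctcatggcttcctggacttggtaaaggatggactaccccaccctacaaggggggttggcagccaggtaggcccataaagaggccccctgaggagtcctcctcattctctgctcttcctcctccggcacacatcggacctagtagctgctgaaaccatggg
Vcam1: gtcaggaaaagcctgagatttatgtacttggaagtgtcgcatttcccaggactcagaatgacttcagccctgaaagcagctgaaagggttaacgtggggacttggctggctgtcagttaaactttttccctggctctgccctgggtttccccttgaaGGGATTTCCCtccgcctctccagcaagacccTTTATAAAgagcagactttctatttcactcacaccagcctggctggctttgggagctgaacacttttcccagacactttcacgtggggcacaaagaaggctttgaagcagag
Vim: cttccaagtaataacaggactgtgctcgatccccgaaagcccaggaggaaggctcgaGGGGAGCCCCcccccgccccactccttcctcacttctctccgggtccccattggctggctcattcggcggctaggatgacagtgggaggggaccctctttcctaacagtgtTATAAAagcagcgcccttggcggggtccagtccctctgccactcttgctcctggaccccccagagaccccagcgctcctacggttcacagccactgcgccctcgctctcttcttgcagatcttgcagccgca

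Before the treatments were compared, the tissue was checked. The defining proximal tubule transcripts were present in every rat, and Slc34a1 ranged from 227.5 TPM in untreated rat 1 to 1405 TPM in i.v. ASC rat 3. In the i.v. ASC group 3 rats stood apart from the other 19 in transcripts of the urothelium, the lining of the renal pelvis. Upk3a, a uroplakin of the urothelial plaque, reached 68.3 TPM in i.v. ASC rat 3, 130 TPM in rat 9 and 22.3 TPM in rat 13, against at most 3.35 TPM in the other 19 rats, 3 of which were at 0. All 7 urothelial genes measured were higher in these 3 rats than in any other rat. Upk1a stood at 132, 189 and 64.4 TPM there and at most at 9.11 TPM elsewhere. Psca, with the highest mean of them over the 22 rats (22.8 TPM), stood at 46.9, 87.5 and 118 TPM in the 3 rats and between 4.86 and 23.6 TPM in the others, and the summed level of the 7 genes ranged over the 22 rats from 7.47 TPM in i.p. ASC rat 15 to 637 TPM in i.v. ASC rat 9. The i.v. comparisons of Krt19 and Vim, the slopes of the markers on Slc34a1 and the main correlations are therefore also given without these 3 rats. That alternative was chosen after the data had been seen. In whole-kidney RNA, fewer cells of a type and less RNA per cell cannot be told apart.

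None of the 9 markers differed between a treated group and the untreated rats at an adjusted p-value under 0.05 (edgeR's quasi-likelihood test). The background was the same, since 0% of the 12867 genes tested passed in any of the 3 comparisons or in that of i.v. with i.p. ASC. With DESeq2, 0 genes passed in the i.p. ASC comparison, 28 in the i.v. ASC comparison and 4 in that of ASC-derived CM, none of them a marker. At an unadjusted p under 0.05, edgeR picked 0 of 9 markers beside 3.89% of all genes after i.p. ASC, 2 of 9 (Krt19 and Vim) beside 8.81% after i.v. ASC, and 0 of 9 beside 6.6% after ASC-derived CM. In no marker were a treated group and the untreated group free of overlap, a pattern that 0.14%, 0.179% and 1.42% of all genes showed in these comparisons. Over the 9 markers the median log2 change was -0.09 after i.p. ASC, 0.04 after i.v. ASC and -0.18 after ASC-derived CM, beside -0.01, -0.01 and 0 (to 2 decimals) for all genes. These medians depended on single rats. The i.p. median was 0.02 without untreated rat 1 and -0.18 without i.p. ASC rat 6. The i.v. median was -0.11 without i.v. ASC rat 8 and 0.11 without the 3 rats with high uroplakins. On the log2(TPM + 1) scale it was -0.11, beside -0.12 for all genes. After ASC-derived CM the median was -0.05 without ASC-derived CM rat 2 and -0.32 without ASC-derived CM rat 11. All 3 comparisons share the same 6 untreated rats.

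**Figure D1:**
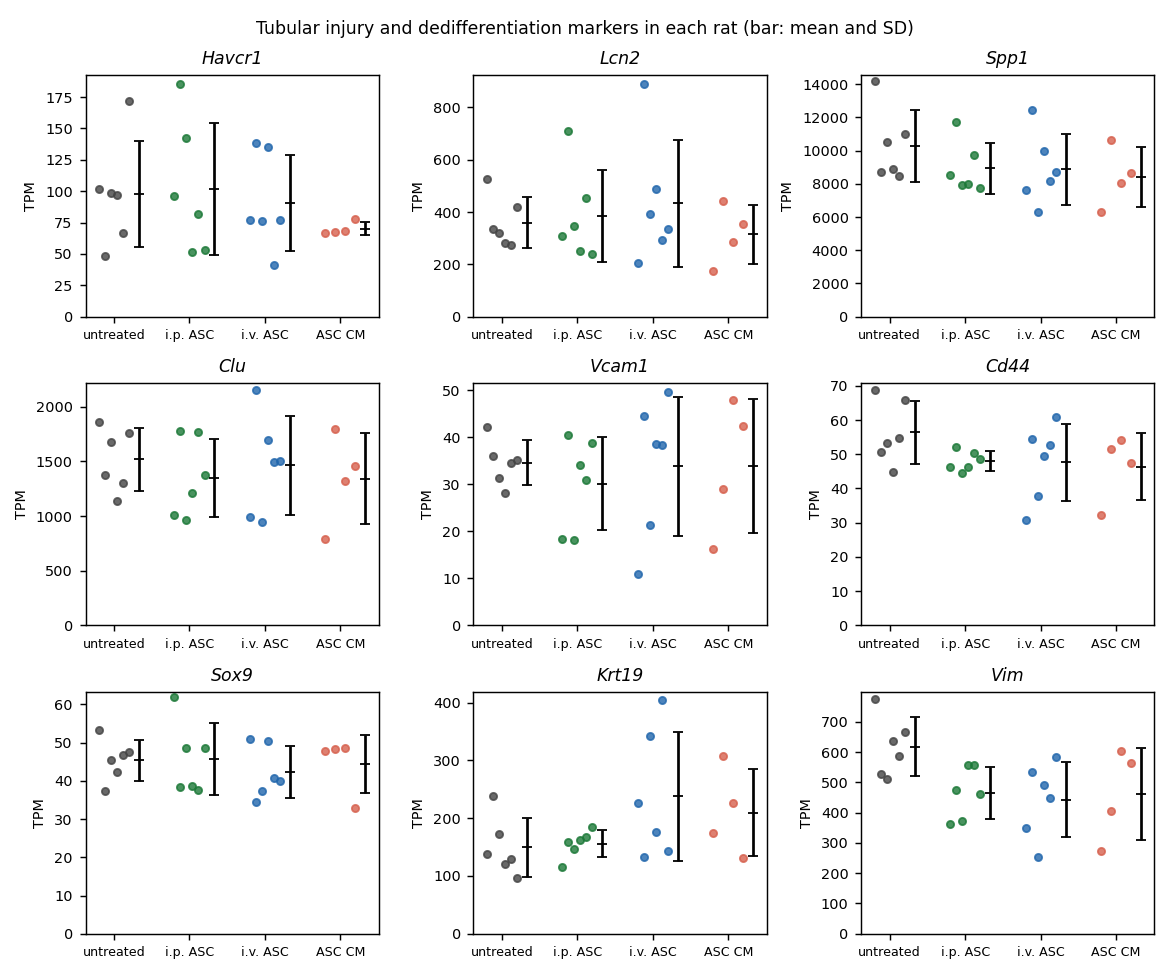
TPM (vertical axes, from 0) of the 9 markers in each of the 22 rats, with 1 point per rat, grouped as untreated (6), i.p. ASC (6), i.v. ASC (6) and ASC-derived CM (4) on the horizontal axes; the bar beside each group is the mean with its SD. The groups overlap in every panel, and in that of Vim all 16 treated rats lie below the untreated median of 612 TPM. The median log2(TPM + 1) change of all genes was itself -0.10, -0.12 and -0.07 after i.p. ASC, i.v. ASC and ASC-derived CM.

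Among the secreted markers, Spp1 encodes osteopontin, an adhesive phosphoprotein that binds integrins and CD44. With a mean of 9190 TPM over the 22 rats it was the second most abundant gene of the table. Its level was 10280 ± 2168 TPM (SD, n = 6) in untreated rats, 8937 ± 1535 TPM (n = 6) after i.p. ASC, 8866 ± 2130 TPM (n = 6) after i.v. ASC and 8409 ± 1793 TPM (n = 4) after ASC-derived CM. The highest value was 14180 TPM in untreated rat 1 and the lowest 6275 TPM in i.v. ASC rat 9, a range of 2.26-fold. The 3 treated means lay below the untreated mean by less than 1 SD of the untreated rats, and the log2 changes of -0.11, -0.10 and -0.23 (SE 0.18, 0.18 and 0.20) had intervals of 2 SE that included 0.

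Clu encodes clusterin, a secreted chaperone. It ranged from 1137 to 1862 TPM in untreated rats (median 1526), from 964 to 1778 TPM after i.p. ASC (median 1291) and from 944.4 to 2150 TPM after i.v. ASC (median 1500). The 4 ASC-derived CM rats had 792.6, 1321, 1462 and 1794 TPM. Every group held low and high rats, and the ranges overlapped over most of their length. The log2 changes were -0.09 (SE 0.21), 0.06 (SE 0.21) and -0.13 (SE 0.24) in the same order of treatments.

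Lcn2 encodes NGAL, an iron-siderophore carrier that appears in urine after tubular injury and is also stored in neutrophil granules. It ranged from 273.1 to 526.3 TPM in untreated rats (median 327.3), from 239.3 to 710.5 TPM after i.p. ASC (median 327.5) and from 203.7 to 890 TPM after i.v. ASC (median 362.1). After ASC-derived CM the 4 values were 174.8, 284.2, 354.6 and 443.7 TPM. The groups shared their middle range, and 1 rat each, i.v. ASC rat 8 and i.p. ASC rat 6, set the upper ends of the ASC groups. With the largest range of the 9 markers, 5.09-fold over the 22 rats, Lcn2 had log2 changes of 0.19 (SE 0.32), 0.39 (SE 0.32) and -0.18 (SE 0.36), each within 2 SE of 0. Without i.v. ASC rat 8 the i.v. value was 0.04, and without untreated rat 1 it was 0.56.

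Of the surface markers, Havcr1 encodes KIM-1, a receptor by which injured proximal tubule cells take up apoptotic debris. Its values ran from 48.6 to 172 TPM in untreated rats (median 97.9), from 51.7 to 186 TPM after i.p. ASC (median 89.0) and from 41.0 to 138 TPM after i.v. ASC (median 76.8). The 4 ASC-derived CM rats lay close together at 66.6, 67.8, 67.9 and 77.6 TPM, all below the untreated median and all inside the untreated range. Log2 changes were 0.21 (SE 0.34), 0.04 (SE 0.34) and -0.39 (SE 0.39). The related gene Timd2 lies close to Havcr1 in the rat annotation, with 1 gene between them, and how reads shared by the pair were split is not given in the sources used here, so both levels are uncertain to that extent.

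Vcam1 encodes an adhesion receptor for leukocytes. In untreated rats it stayed between 28.1 and 42.2 TPM (median 34.8), whereas it ran from 18.1 to 40.5 TPM after i.p. ASC (median 32.5) and from 10.8 to 49.6 TPM after i.v. ASC (median 38.4). The 4 ASC-derived CM values were 16.2, 28.9, 42.4 and 47.8 TPM. The group means differed little, from 30.1 ± 9.82 TPM after i.p. ASC to 34.6 ± 4.75 TPM in untreated rats, and the log2 changes of -0.12, 0.06 and 0.00 (SE 0.28, 0.28 and 0.31) were smaller than their SE. The lowest value of all belonged to i.v. ASC rat 3, which also had the lowest Cd44.

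Cd44, the hyaluronan receptor of regenerating tubule, ranged from 44.7 to 68.9 TPM in untreated rats (median 54.1), from 44.6 to 52.2 TPM after i.p. ASC (median 47.5) and from 30.9 to 61.0 TPM after i.v. ASC (median 51.0). The ASC-derived CM rats had 32.3, 47.6, 51.6 and 54.1 TPM. All 6 i.p. ASC rats were below the untreated median but within the untreated range save for the lowest, which differed from the lowest untreated rat by less than 1 TPM. Log2 changes were -0.13 (SE 0.13), -0.14 (SE 0.13) and -0.22 (SE 0.14), and a two-sided exact permutation test over rats gave p = 0.232, 0.329 and 0.181.

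Sox9, the transcription factor, varied least of the 9 markers, with a coefficient of variation of 15.8% over the 22 rats. Its mean was 45.4 ± 5.38 TPM (SD, n = 6) in untreated rats, 45.7 ± 9.43 TPM (n = 6) after i.p. ASC, 42.3 ± 6.84 TPM (n = 6) after i.v. ASC and 44.4 ± 7.64 TPM (n = 4) after ASC-derived CM. No 2 of these means differed by more than 1 SD of the untreated rats. The interval of 2 SE around the log2 change ran from -0.18 to 0.40 after i.p. ASC, from -0.27 to 0.30 after i.v. ASC and from -0.27 to 0.37 after ASC-derived CM.

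Krt19, a keratin of simple epithelia such as the collecting duct and of the urothelium, ranged from 96.1 to 238 TPM in untreated rats (median 134), from 116 to 184 TPM after i.p. ASC (median 161) and from 134 to 404 TPM after i.v. ASC (median 202). The 4 ASC-derived CM rats had 131, 174, 226 and 307 TPM. The 3 i.v. ASC rats with high uroplakins had 226, 343 and 404 TPM, the 3 highest values of that group. Against untreated rats the log2 change of Krt19 was 0.78 after i.v. ASC (SE 0.28, unadjusted p = 0.011, adjusted p = 0.523), 0.13 after i.p. ASC (SE 0.28, adjusted p = 0.912) and 0.54 after ASC-derived CM (SE 0.31, adjusted p = 0.726). Between the routes, the log2 difference of i.v. from i.p. ASC was 0.65 (SE 0.28, unadjusted p = 0.0305, adjusted p = 1.0), and Krt19 was the only 1 of 9 markers with an unadjusted p under 0.05 there, beside 2.18% of all genes. For Krt19 the exact permutation p over rats, two-sided, was 0.0714 for the i.v. difference from untreated and 0.123 between the routes. The i.v. and i.p. rats overlapped in all 9 markers, as they did in all but 0.0544% of the genes tested. Without the 3 rats the i.v. difference from untreated was 0.10 and that between the routes -0.04, and with the mean of the uroplakins added to the fit they were 0.10 and -0.03. Aqp2, the water channel of the collecting duct principal cell, stood at 737, 1580 and 1500 TPM in the same 3 rats and between 406 and 1170 TPM in the other 19. The mean of 8 collecting duct genes was also added to the fit after the data had been seen. With it the difference of Krt19 from untreated was 0.44 after i.v. ASC and 0.85 after ASC-derived CM, and that between the routes 0.23.

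Vim encodes vimentin, the intermediate filament of mesenchymal, endothelial and podocyte cells that dedifferentiated tubule cells also acquire. Untreated rats ranged from 511 to 774 TPM (median 612), i.p. ASC rats from 363 to 558 TPM (median 469) and i.v. ASC rats from 253 to 585 TPM (median 468). The ASC-derived CM rats had 274, 406, 563 and 604 TPM. Every one of the 16 treated rats was below the untreated median in TPM, yet each treated group overlapped the untreated range. The share of all genes with this pattern is not given here. On the log2(TPM + 1) scale the median change of all genes was itself -0.10, -0.12 and -0.07 in the 3 comparisons. The rats below the untreated medians of Havcr1 and Cd44 are counted in TPM too. In edgeR the log2 change of Vim was -0.33 after i.p. ASC (SE 0.16, unadjusted p = 0.057, adjusted p = 0.771). It was -0.37 after i.v. ASC (SE 0.16, unadjusted p = 0.0314, adjusted p = 0.523). After ASC-derived CM it was -0.38 (SE 0.18, unadjusted p = 0.0521, adjusted p = 0.711). Two-sided exact permutation tests of log2 CPM over rats gave p = 0.00649, 0.0303 and 0.0429 for this gene alone. The smallest p these designs allow is 0.00216 for 6 against 6 rats and 0.00476 for 4 against 6. The share of all genes at such permutation p-values is not given here. Without the 3 rats with high uroplakins the i.v. change was -0.12, and with the uroplakin mean in the fit -0.03, while the i.p. change was -0.31 and -0.33 and the ASC-derived CM change -0.38 and -0.39. The ASC-derived CM change was -0.24 without ASC-derived CM rat 2 and also -0.24 with Slc34a1 added to the fit.

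Other cells that make Vim were followed by their marker lists. Over the 22 rats its Pearson r was 0.83 with the mean of 5 endothelial genes, 0.76 with that of 5 podocyte genes, 0.65 with that of 7 macrophage genes and 0.62 with that of 8 fibroblast genes, all of which were measured and none of which was at 0 in any rat. Over the 19 rats without high uroplakins these were 0.74, 0.70, 0.59 and 0.52. With the lymphocyte and neutrophil lists r was lower, 0.33 and 0.21 over the 22 rats and 0.21 and 0.06 over the 19. All 6 lymphocyte genes had a log2 change above 0 in each of the 3 comparisons (median 0.15, 0.23 and 0.25). Of the 3 neutrophil genes tested, 3, 1 and 2 were above 0, and no gene of either list passed. The summed podocyte level was 247 TPM in untreated rats, 184 after i.p. ASC, 134 after i.v. ASC and 154 after ASC-derived CM, with extremes of 54.7 TPM in ASC-derived CM rat 2 and 359 TPM in untreated rat 22. The summed endothelial level was 231, 192, 167 and 182 TPM in the same order of groups, with Emcn (endomucin) the most abundant at 68.2 TPM, and it was lowest in i.v. ASC rat 9 at 80.3 TPM, the rat with the lowest Vim. All 5 podocyte and all 5 endothelial genes had a log2 change below 0 in each of the 3 comparisons and none passed the test at an adjusted p under 0.05. In the 3 i.v. ASC rats without high uroplakins the podocyte sum was 200 TPM and the endothelial sum 221 TPM, and against untreated rats all 5 podocyte genes were still below 0 but 3 of 5 endothelial genes above it. Neither the fibroblast nor the macrophage list had all its genes below 0 in any of the 3 comparisons. The fibroblast summed level was 603, 561, 583 and 764 TPM in the same order of groups, and 5, 6 and 8 of its 8 genes had a log2 change above 0 in the 3 comparisons (median 0.02, 0.18 and 0.49), none of them past the test. For macrophages the sum was 1710, 1660, 1530 and 1740 TPM, and 3, 2 and 7 of 7 genes were above 0. Most macrophage genes were thus below 0 after i.p. ASC (4 of 7) and i.v. ASC (5 of 7), with medians of -0.01 and -0.05. In the same 3 i.v. ASC rats these sums were 753 TPM for fibroblasts and 2030 TPM for macrophages, and all genes of both lists were above 0. The part of these cells in the Vim values was not tested.

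**Figure D2:**
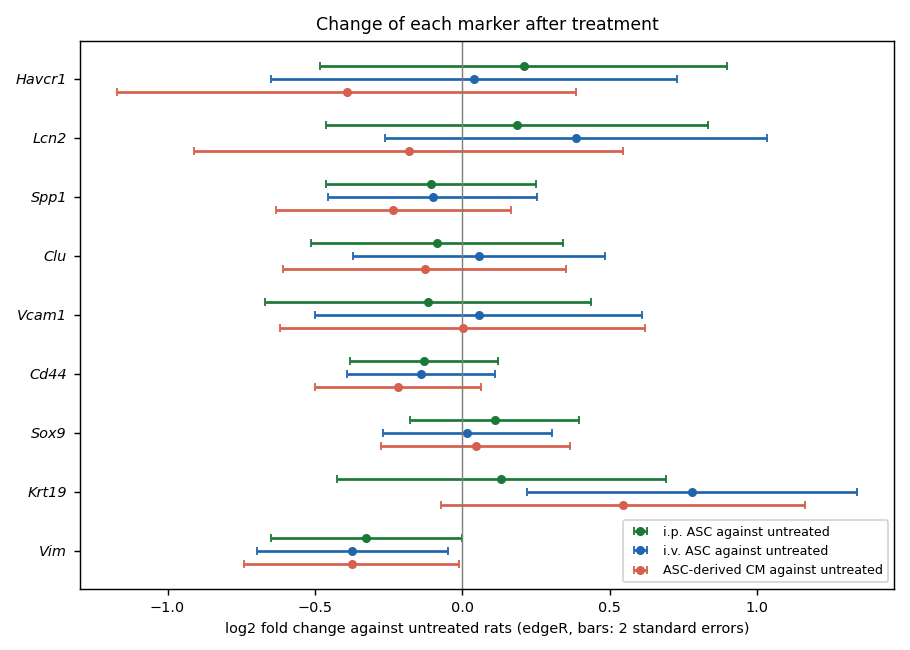
The log2 fold change (horizontal axis) of each of the 9 markers (vertical axis) after i.p. ASC, i.v. ASC and ASC-derived CM, each against the same 6 untreated rats; points are edgeR estimates and bars 2 standard errors. The interval leaves 0 for Krt19 after i.v. ASC and for Vim, although no adjusted p-value is under 0.05.

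Genes of the neighbouring programs showed as few calls. Over the lists of 12 early stress genes, 15 failed-repair and inflammatory genes, 16 further dedifferentiation and cytoskeleton genes, 6 urinary injury markers and 10 receptors or ligands of the markers that could be tested, 0 genes passed in any comparison. In the i.p. ASC and ASC-derived CM comparisons the smallest p among the further dedifferentiation genes was that of Cdh6, a cadherin of the developing proximal tubule, at -0.53 (SE 0.20, adjusted p = 0.771) and -0.63 (SE 0.23, adjusted p = 0.711). For Cdh6 the change after i.v. ASC was -0.66 (SE 0.20, adjusted p = 0.523). Cdkn1a, the cell-cycle inhibitor p21, had a log2 change of -0.51 after ASC-derived CM (SE 0.18, adjusted p = 0.711). Tff3, a trefoil peptide of mucosal repair, had the largest log2 differences of the urinary markers, 1.88, 2.08 and 2.41 in the 3 comparisons, but with SE of 0.95, 0.96 and 1.03 and adjusted p of 0.771, 0.523 and 0.711.

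Beside the treatments, each marker was set against Slc34a1 over the 22 rats. The slope is the change of a gene on the log2 scale per doubling of Slc34a1 TPM, with the treatment group in the fit. Of the 12866 genes tested, 17.1% passed at an adjusted p under 0.05 (edgeR), 6.86% falling and 10.2% rising as Slc34a1 rose. Of the 9 markers 5 passed, all of them falling: Cd44, Clu, Vcam1, Lcn2 and Spp1. The median slope was -0.22 over the 9 markers and -0.01 over all genes, and 8 of 9 markers had a slope below 0 beside 53.8% of all genes.

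Clu fell by 0.38 per doubling of Slc34a1 (SE 0.09, adjusted p = 0.0073), and its Pearson r with Slc34a1 on the log2(TPM + 1) scale was -0.73 (permutation p = 0.00021, Spearman rho -0.79, p = 5e-05, 22 rats). The same sign was seen inside each group of 6, with r of -0.70 in untreated, -0.90 in i.p. ASC and -0.73 in i.v. ASC rats. Rat by rat, ASC-derived CM rat 2, with Slc34a1 at 1195 TPM, had the lowest Clu at 792.6 TPM, and i.v. ASC rat 8, with Slc34a1 at 463.2 TPM, the highest at 2150 TPM. Cd44 fell by 0.22 (SE 0.05, adjusted p = 0.00695) with r = -0.66 (permutation p = 0.00087, rho -0.70), and r within the 3 groups of 6 was -0.71, -0.79 and -0.90. These slopes of Clu and Cd44 passed in each of the 22 fits that left out 1 rat.

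Vcam1 had the steepest slope of the surface markers, -0.46 (SE 0.13, adjusted p = 0.0243), with r = -0.60 (permutation p = 0.00311, rho -0.56) and -0.92, -0.62 and -0.90 within the groups of 6. For Lcn2 the slope was -0.48 (SE 0.15, adjusted p = 0.0343), with r = -0.62 (permutation p = 0.00229, rho -0.61) and -0.86, -0.67 and -0.48 within groups. Spp1 was close to the threshold with -0.24 (SE 0.08, adjusted p = 0.0487), r = -0.65 (permutation p = 0.00127, rho -0.64) and -0.77, -0.74 and -0.47 within groups. Vcam1 passed in 19, Lcn2 in 16 and Spp1 in 6 of the 22 fits that left out 1 rat. The p-values of the 9 correlations are not adjusted, and the adjusted values are those of the slopes over all genes.

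The other 4 markers did not pass. Vim missed the threshold narrowly, with a slope of -0.22 (SE 0.08, adjusted p = 0.0501) and r = -0.49 (permutation p = 0.0203), but rho was -0.38 (permutation p = 0.0797). Its slope passed with DESeq2 (adjusted p = 0.0322), without the group term (0.0345), with animal number (0.0113) or the collecting duct mean (0.00384) added, and in 4 of the 22 fits that left out 1 rat. Krt19 had a slope of -0.15 (SE 0.16, adjusted p = 0.541) and r = -0.12. Havcr1, made by the proximal tubule itself, had a slope of -0.03 (SE 0.20, adjusted p = 0.93) and r = -0.06, with the highest and the lowest values both found in rats with low Slc34a1, i.p. ASC rat 6 (Havcr1 186 TPM, Slc34a1 404.1 TPM) and i.v. ASC rat 13 (Havcr1 41.0 TPM, Slc34a1 388.6 TPM). Sox9 alone had a slope above 0, 0.13 (SE 0.07, adjusted p = 0.212). Its slope passed when animal number was added (0.17, adjusted p = 0.0156) and when untreated rat 1 was left out (0.23, adjusted p = 0.0372), and was 0.08 without i.p. ASC rat 5. Its r of 0.32 (permutation p = 0.152) joined -0.42 in untreated rats with 0.89 in i.p. ASC and 0.62 in i.v. ASC rats. Whether the slope differed between groups was tested by an interaction term, added after the data had been seen. Of the 12866 genes 0 passed (580 had an unadjusted p under 0.05). For Sox9 that test gave an unadjusted p of 0.031 and an adjusted p of 0.948.

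Leaving out the 2 rats whose Slc34a1 was farthest from the median on the log2 scale, untreated rat 1 and i.p. ASC rat 16, changed r to -0.71 for Clu, -0.62 for Cd44, -0.66 for Vcam1, -0.59 for Lcn2 and -0.53 for Spp1. For Vim it changed to -0.35 and for Sox9 to 0.52. In the 19 rats without high uroplakins r was -0.73 for Clu and for Spp1, -0.64 for Cd44 and for Lcn2, -0.53 for Vcam1 and -0.52 for Vim. The number of calls depended on some of the rats. Without the 3 rats with high uroplakins 533 genes passed (4.13% of those tested, 1.12% falling), and of the markers Clu did (slope -0.34, adjusted p = 0.0447). The slopes that did not pass in that fit were -0.42 for Lcn2, -0.30 for Vcam1, -0.23 for Spp1, -0.17 for Cd44 and -0.18 for Vim. Those of Krt19, Havcr1 and Sox9 were -0.15, -0.04 and 0.11 and did not pass either. Without i.v. ASC rat 3 alone, 805 of 12849 genes (225 falling) and 2 markers passed. When i.p. ASC rat 6 was left out 1533 of 12859 genes (516 falling) and 2 markers passed. The number of markers was 3 without ASC-derived CM rat 2 (1878 of 12939 genes, 639 falling). It was also 3 without i.v. ASC rat 8 (1822 of 12862 genes, 671 falling). The slopes of Clu, Cd44, Vcam1, Lcn2 and Spp1 kept their sign in each of these fits.

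**Figure D3:**
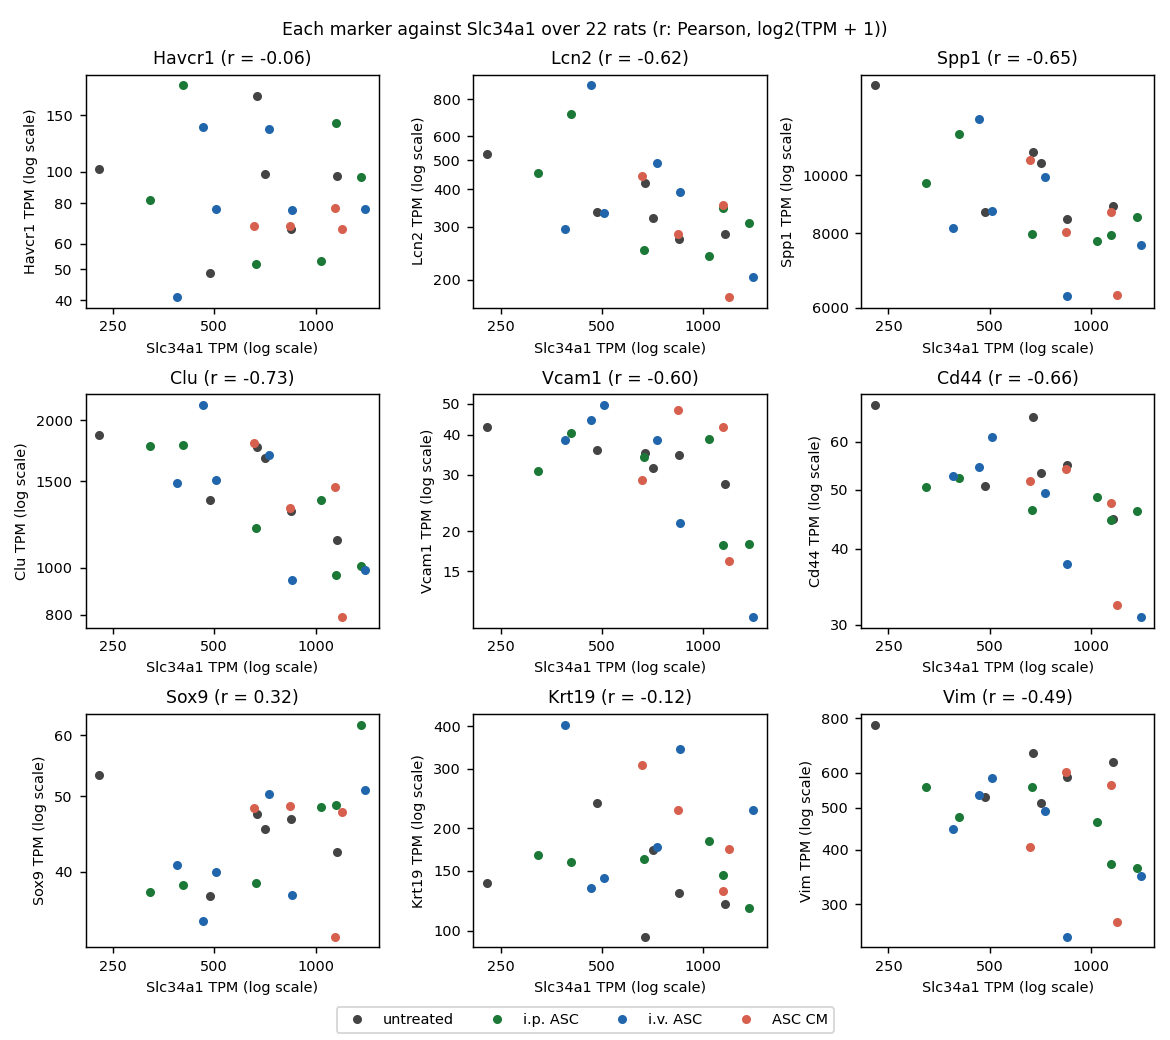
Each marker's TPM (vertical axes, log scale) against Slc34a1 TPM (horizontal axes, log scale) in the 22 rats, 1 point per rat, coloured by group; r is Pearson's r of log2(TPM + 1). Clu (r = -0.73), Cd44, Spp1, Lcn2 and Vcam1 fall as Slc34a1 rises, whereas Havcr1 (r = -0.06) and Krt19 (r = -0.12) scatter without a trend.

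Slc34a1 did not stand for every proximal tubule gene. Of the other 11 proximal tubule genes, 8 rose with it: the organic anion transporters Slc22a6 (slope 0.94, SE 0.08, r = 0.93) and Slc22a8 (r = 0.63), the endocytic receptors Lrp2 (slope 0.74, SE 0.11, r = 0.84) and Cubn (r = 0.79), Slc13a3 (r = 0.82), Slc27a2 (r = 0.83), the transcription factor Hnf4a (r = 0.78) and the water channel Aqp1 (r = 0.58). In contrast, r was 0.18 for Slc34a3, 0.00 for the glucose transporter Slc5a2 and -0.07 for the lactate transporter Slc5a12. The mean of the 11 genes had r = 0.88 with Slc34a1. Of these 8, 7 also passed without the 3 rats with high uroplakins, and Aqp1 did not. When this list took the place of Slc34a1 in the fit, 667 of 12866 genes passed (232 falling) and 0 of the 9 markers did. The slopes of the 5 markers named above still remained below 0: Vcam1 -0.52, Lcn2 -0.43, Clu -0.41, Cd44 -0.26 and Spp1 -0.20. That alternative gave Havcr1 a slope of 0.30.

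Genes of related programs are set here against the background of 6.86% of all genes falling and 10.2% rising with Slc34a1. In the failed-repair and inflammatory list 6 of 15 genes fell and 0 rose, with a median slope of -0.22: Dcdc2 (-0.28, SE 0.06, adjusted p = 0.00561), the complement component C3 (-0.48, SE 0.13, adjusted p = 0.0153), Nfkb2, Slpi, Cp and Itgb6. Slpi, a secreted protease inhibitor, was the most abundant of these with a mean of 283 TPM. Among the further dedifferentiation and cytoskeleton genes 7 of 16 fell and 1 rose, with a median slope of -0.20. Sox4, a transcription factor of progenitor cells, had the smallest p (-0.26, SE 0.04, adjusted p = 0.000379), followed by S100a11, the most abundant at 4280 TPM (-0.30, SE 0.05, adjusted p = 0.00132). The other genes of that list that fell were Tmsb10, Anxa1, Anxa2, Krt18 and Cd24, and the riser was Prom1 (0.64, SE 0.20, adjusted p = 0.032). Of the 6 other urinary markers B2m, Timp1 and Timp2 fell (slopes -0.20, -0.37 and -0.33), while Cst3, the most abundant at 2290 TPM, was not among them. When the 3 rats with high uroplakins were left out 1 of 15 failed-repair genes (Dcdc2), 6 of 16 dedifferentiation genes and 0 of 6 urinary markers fell, and 0 rose, beside 1.12% of all genes falling and 3.02% rising in that fit.

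In the early stress list 0 of 12 genes passed. Junb (slope -0.19, SE 0.07, adjusted p = 0.0529) and Fos (-0.57, SE 0.20, adjusted p = 0.0585) came nearest, and Ier3 was the most abundant at 219 TPM. Among the receptors and ligands of the markers 2 of 10 fell: Trem2, a lipid receptor of macrophages that also binds clusterin (-0.54, SE 0.13, adjusted p = 0.0114), and Itgb1, the integrin beta chain shared by receptors of osteopontin and VCAM-1 and the most abundant of the list at 268 TPM (-0.10, SE 0.03, adjusted p = 0.0422). The hyaluronan synthases Has1, Has2 and Has3 had means under 1 TPM. The background was 6.86% of all genes falling and 17.1% called in either direction, nothing is read from counts this small, and without the 3 rats 0 genes of either list passed.

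Immune and stromal cells were followed by their marker genes in the same fit. All 6 lymphocyte genes had slopes below 0 and 4 passed, among them the B-cell genes Ms4a1 (-0.74, SE 0.18, adjusted p = 0.0109) and Cd79b and the T-cell gene Cd3g. Their summed level ranged from 39.3 TPM in i.v. ASC rat 3 to 233 TPM in i.p. ASC rat 6, and Cd3g was the most abundant at 38.2 TPM. Of 7 macrophage genes all had slopes below 0 and 1 passed, Lyz2 (-0.49, SE 0.15, adjusted p = 0.0335), also the most abundant at 1340 TPM. Nothing is read from 1 gene of 7 beside 6.86% of all genes falling. The macrophage sum lay between 458 TPM in i.v. ASC rat 3 and 2660 TPM in i.p. ASC rat 6. Of 8 fibroblast genes 3 fell, the collagens Col3a1, Col1a2 and Col1a1 with slopes of -0.56, -0.46 and -0.43, whereas Dcn, the most abundant at 187 TPM, had -0.16 (SE 0.15, adjusted p = 0.474). The fibroblast sum ran from 309.9 TPM in i.p. ASC rat 7 to 1185 TPM in ASC-derived CM rat 19. No lymphocyte or fibroblast gene and no macrophage gene was at 0 in any rat. With the 3 rats left out 0 genes of these 3 lists passed, while all 6 lymphocyte, 7 macrophage and 8 fibroblast genes had slopes below 0. The part of these cells in the slopes of the markers was not tested.

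The lists of the thick ascending limb and distal tubule (5 genes tested, most abundant Umod at 2210 TPM), collecting duct principal cell (8, Hsd11b2 at 853 TPM), intercalated cell (5, Atp6v1g3 at 285 TPM), podocyte (5), endothelium (5), neutrophil (3, S100a9 at 27.4 TPM) and urothelium (6) had 0 genes past the threshold in the slope on Slc34a1. The nearest was Upk2 of the urothelium (slope 2.04, SE 0.80, adjusted p = 0.0804).

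How the markers moved with one another was described by Pearson's r of log2 CPM (counts scaled to the library total with TMM factors) over the 22 rats, which all share the same libraries and scaling. Of the 36 pairs of markers, 23 had r above 0 and 14 above 0.5, with a median of 0.30. Lcn2, Spp1, Clu and Cd44 formed the tightest group: r was 0.83 for Spp1 with Clu, 0.83 for Clu with Cd44 and 0.82 for Lcn2 with Spp1. Vcam1 had r of 0.74 with Cd44 and 0.69 with Clu. Among 12866 genes, however, Cd44 and Clu ranked only 1004 and 1267 by r with Vcam1, whereas Vcam1 ranked 157 with Cd44 and 225 with Clu. By comparison, Clu and Lcn2 ranked 3 and 4 by r with Spp1. Havcr1 was like Lcn2 (0.68) and Spp1 (0.63) but not like Vcam1 (-0.04). Sox9 and Krt19 stood outside it, and the lowest values of all pairs were Sox9 with Vcam1 (-0.63) and Krt19 with Vim (-0.58). Over the 19 rats without high uroplakins 26 pairs were above 0 and 12 above 0.5, and r was 0.83 for Spp1 with Clu, 0.84 for Clu with Cd44, 0.90 for Lcn2 with Spp1, 0.60 for Vcam1 with Cd44, -0.59 for Sox9 with Vcam1 and -0.44 for Krt19 with Vim.

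**Figure D4:**
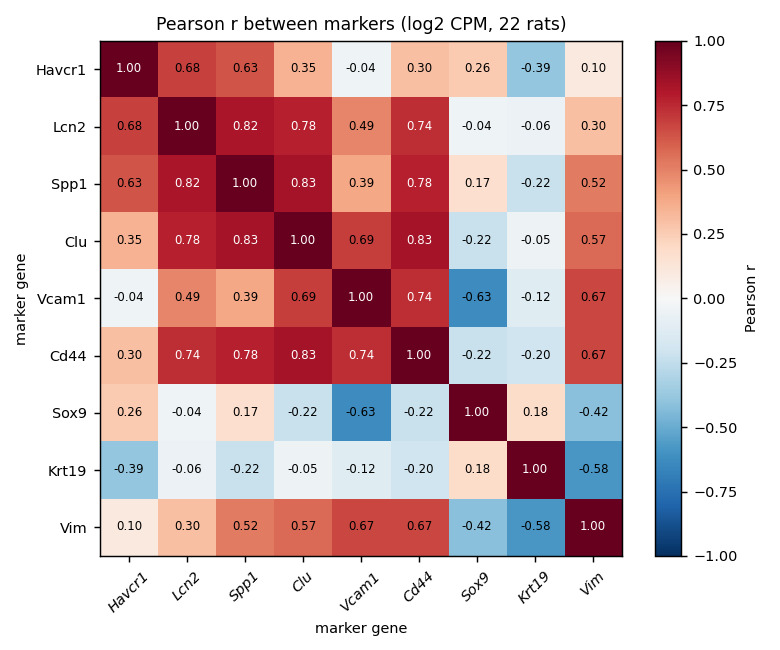
Pearson's r of log2 CPM over 22 rats for each pair of the 9 markers (rows and columns), printed in each cell and coloured from -1 (blue) to 1 (red). Lcn2, Spp1, Clu and Cd44 form a block between 0.74 and 0.83, and Sox9 and Krt19 are mostly near or below 0 with the others.

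The 3 genes most like each marker over all 22 rats, not recomputed without the 3 rats, differed from marker to marker. Havcr1 was closest to its neighbour Timd2 (r = 0.89), to the cytokine Il24 (0.88) and to the acute-phase protease inhibitor Serpina3n (0.87). For Lcn2 they were S100a10 (0.88), Fkbp1a (0.88) and Jpt1 (0.86), for Spp1 Npm1 (0.87), Fkbp1a (0.86) and Clu (0.83), and for Clu Arpc1b (0.85), Tmsb10 (0.84) and Psmb10 (0.83). Vcam1 was matched most closely by Rftn1 (0.96), Adam19 (0.96) and the immunoproteasome subunit Psmb8 (0.95). Cd44 was followed by Anxa1 (0.92), Gusb (0.90) and Cd276 (0.89), and Sox9 by Calm3 (0.88), the tight-junction claudin of the proximal tubule Cldn2 (0.88) and Apmap (0.86). Krt19 had Kcnk1 (0.90), Cldn19 (0.90) and Wfdc10a (0.87), and Vim had the matrix genes Pxdn (0.97), Col4a1 (0.94) and Sparc (0.93).

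Set against the means of cell type lists, the 9 markers again parted. Vcam1 had r = 0.92 with the macrophage list, 0.85 with the fibroblast list and 0.85 with the lymphocyte list, and Sox9 had -0.71, -0.62 and -0.45 with the same lists. Lcn2 and Havcr1 had their highest values with the neutrophil list (0.66 and 0.65), in which Mpo, a granule enzyme, had a mean under 1 TPM and was at 0 in some rats, and whose sum ran from 6.42 TPM in i.v. ASC rat 3 to 148 TPM in untreated rat 24. Krt19 had 0.64 with the urothelium list, 0.57 with the collecting duct list and -0.76 with the podocyte list, and over the 19 rats without high uroplakins 0.07, 0.17 and -0.67. Over those 19 rats Vcam1 had 0.87, 0.88 and 0.77 with the macrophage, fibroblast and lymphocyte lists, Sox9 had -0.77 with the macrophage list, and Lcn2 and Havcr1 had 0.63 and 0.66 with the neutrophil list. Spp1 was not above 0.42 with any of these lists. All of these correlations are descriptions over rats that differed in the summed levels of these lists, and the source cell of each transcript was not tested.

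**Figure D5:**
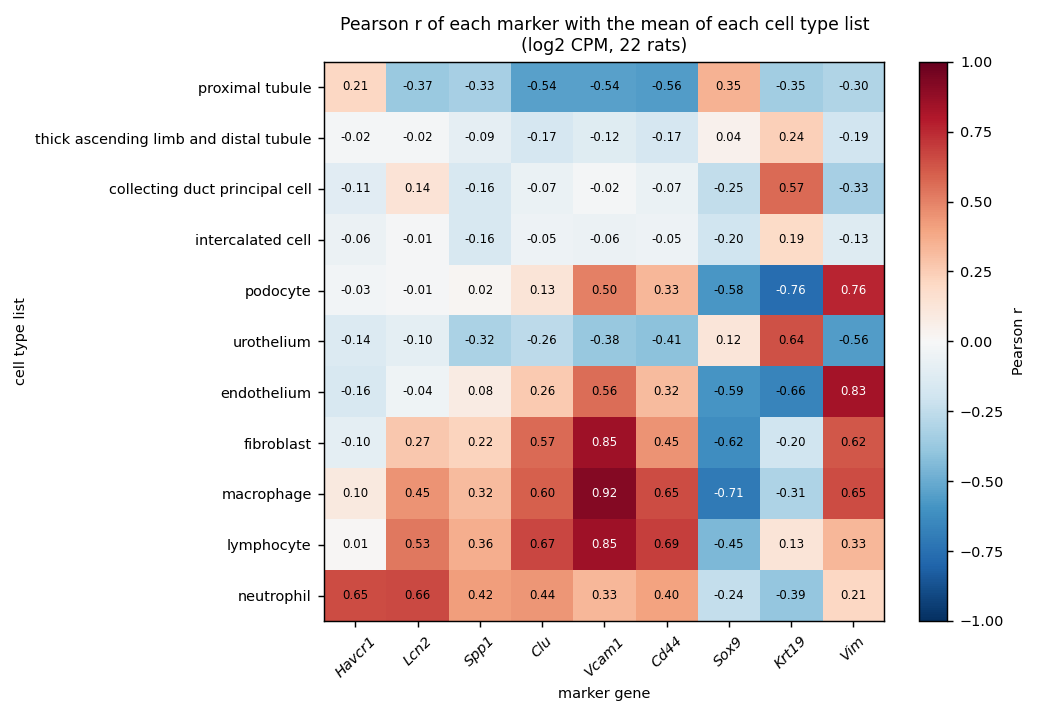
Pearson's r over 22 rats between the log2 CPM of each of the 9 markers (columns) and the mean log2 CPM of 11 cell type marker lists (rows), coloured from -1 (blue) to 1 (red). Vcam1 with macrophage (0.92), fibroblast (0.85) and lymphocyte (0.85) genes and Vim with endothelial (0.83) and podocyte (0.76) genes are the highest values.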

How the data were processed

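RNA of the left kidney of 22 rats in 4 groups, taken from the sample labels, was analysed; the ABCB5+ groups and other rats were not analysed here. The submitters' processing notes name Trim Galore 0.6.4, kallisto 0.4.6 and rn6, and the paper DESeq2 and a human transcript package. The authors deposited per rat an estimated count for each Entrez gene, without normalization, and a TPM value, which corrects the count for transcript length and library total (sums of 959754 to 968550 per rat). Here 14.1% of the estimated counts had a decimal part other than exactly 0 and were rounded. Symbols of 17179 identifiers came from the RefSeq gene table of assembly GRCr8, used for names, and 155 had none.

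Counts were tested with edgeR 4.0.16 (R 4.3.3; TMM, filterByExpr, quasi-likelihood test, all 4 groups in 1 fit, Benjamini-Hochberg over all genes tested, threshold 0.05). The slope used log2(Slc34a1 TPM + 1) with group in the fit. Exact permutation tests used all splits of the rats and correlations 100000 permutations, both two-sided. P-values measure the spread between rats, 1 library each. Chi-square per gene was at least 7.51 between rats of a group, so no pair within a group was within sampling noise. Pairs across groups were not compared. At total counts of 12195682 to 14734772 per rat, counting error is small beside that spread. In simulated counts for i.v. ASC against untreated, with 12812 genes in the step, edgeR recovered 76 of 99 changes of 1 and 97 of 100 changes of 2 on the log2 scale and called 11 unchanged genes. For the slope it recovered 191 of 199 simulated slopes of 1, steeper than those of the markers, and called 4 unchanged genes.

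The alternatives tried were RLE size factors, DESeq2 1.42.0, leaving out the filter, a minimum of 10 counts in every rat, limma 3.58.1 on log2(TPM + 1) or log2(TPM + 0.1) for genes with a mean of at least 1 TPM, only the 2 groups compared, added terms (uroplakin mean, animal number, Slc34a1), no group term, the proximal tubule list for Slc34a1, and each rat left out in turn. A collecting duct term, the interaction of the slope with the group and the omission of 3 rats with Upk3a over 10 TPM were added after seeing the data. Named genes were the markers and Slc34a1, all proximal tubule and urothelium genes, from each other list the most abundant gene, the 2 with the smallest p in the slope and the 1 in each comparison, and the 3 genes most like each marker; other names beside counts were added after their values were seen. The markers and lists were chosen with earlier results of these data known. Relb, Itgav, Itga9, Lrp8, Timd4 and Upk3b were not analysed here. Results of a few named genes are not reported here.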

Additional observations from a re-analysis of the deposited data

How the results depend on the processing

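In the comparisons of treatments 0 markers passed under every alternative run. The counts of all genes did change: DESeq2 called 28 genes for i.v. ASC, 4 for ASC-derived CM and 24 for i.v. against i.p. ASC; with only the 2 groups in the fit 1 gene passed for ASC-derived CM, and without the 3 rats with high uroplakins 3. With single rats left out, 0 to 14 genes passed for i.v. ASC and 0 to 13 between the routes, without i.v. ASC rat 8 or rat 14. Log2 changes that changed sign, none past the threshold in any fit, were as follows. For Krt19 between the routes the reported value was 0.65. On the log2(TPM + 1) scale, where the median of all genes shifts by -0.10, -0.12 and -0.07 in the 3 comparisons, Sox9 was -0.0071 (i.p.), -0.11 (i.v.) and -0.04 (CM), Vcam1 -0.17 (i.v.) and -0.13 (CM), Havcr1 -0.11 and Clu -0.09 (i.v.), and Spp1 -0.03 between the routes. On log2(TPM + 0.1), with shifts of -0.11, -0.13 and -0.07, they were -0.0075, -0.11, -0.04, -0.19, -0.14, -0.11, -0.09 and -0.03. With animal number added Sox9 was -0.04, -0.17 and -0.06, Havcr1 -0.16 (i.v.) and Spp1 -0.01 between the routes. Spp1 between the routes was also -0.0004 (DESeq2), -0.0002 (RLE) and -0.03 (Slc34a1 added). With Slc34a1 added Sox9 was -0.01 (i.v.) and -0.04 (CM), Lcn2 0.13 and Clu 0.10 (CM). With the uroplakin mean added Spp1 was 0.19, Cd44 0.09 and Sox9 -0.12 (i.v.), Vcam1 -0.03 (CM), and between the routes Havcr1 0.06, Cd44 0.22, Krt19 -0.03 and Vim 0.30. Without the 3 rats Spp1 was 0.11, Cd44 0.03 and Sox9 -0.06 (i.v.), and between the routes Havcr1 0.15, Cd44 0.14, Krt19 -0.04 and Vim 0.19. With the collecting duct mean Vcam1 was -0.03 and Sox9 -0.0098 (CM), and between the routes Cd44 0.02 and Vim 0.04.

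In the slope on Slc34a1, 5 markers passed, beside 882 falling genes of 12866 tested. There were 6 with DESeq2 (1222 of 15274 genes falling), without the group term (945 of 12866) and with the collecting duct mean (1202 of 12866). There were 4 with RLE (814 of 12866 falling), no filter (731 of 15274) or a minimum of 10 counts (887 of 11720). With animal number 7 markers passed, 6 falling and Sox9 rising (3987 genes, 2025 falling). The number was 2 with the uroplakin mean (1045 genes, 360 falling) and 1 without the 3 rats (533 genes, 144 falling). It was 0 with the proximal tubule list (667 genes, 232 falling). With 1 rat left out it was 2 to 6 (805 to 2808 genes, the highest without untreated rat 1). Leaving out i.p. ASC rat 5 gave 1343 genes. The causes were not tested. Havcr1 changed sign to 0.003 and 0.0036 on the TPM scales, 0.0079 with animal number, 0.05 with the uroplakin mean and 0.30 with the list. On log2 CPM the correlation of Havcr1 was 0.03 and that of Sox9 0.43 (permutation p = 0.0461). With 1 rat left out, r ranged from -0.18 to 0.06 for Havcr1, from 0.20 to 0.55 for Sox9, from -0.23 to 0.02 for Krt19 and from -0.57 to -0.38 for Vim. Log2 changes that crossed 0 with 1 rat left out ranged, for i.p. ASC, from -0.08 to 0.41 (Havcr1), -0.08 to 0.36 (Lcn2), -0.21 to 0.02 (Spp1) and -0.02 to 0.18 (Sox9). For i.v. ASC they ranged from -0.15 to 0.24 (Havcr1), -0.24 to 0.02 (Spp1), -0.11 to 0.15 (Clu), -0.08 to 0.23 (Vcam1) and -0.07 to 0.08 (Sox9), and for ASC-derived CM from -0.32 to 0.02 (Clu), -0.15 to 0.20 (Vcam1) and -0.04 to 0.17 (Sox9). Between the routes they ranged from -0.37 to 0.12 (Havcr1), -0.15 to 0.47 (Lcn2), -0.14 to 0.11 (Spp1), -0.04 to 0.26 (Clu), -0.09 to 0.07 (Cd44), -0.19 to 0.04 (Sox9) and -0.14 to 0.06 (Vim). The slope of Havcr1 ranged from -0.10 to 0.13. Other log2 changes that moved by over 1.5 times ranged, for i.p. ASC, from -0.20 to -0.01 (Clu), -0.26 to -0.0085 (Vcam1), -0.18 to -0.07 (Cd44) and 0.03 to 0.34 (Krt19), and for i.v. ASC from 0.04 to 0.56 (Lcn2) and -0.21 to -0.05 (Cd44). For ASC-derived CM they ranged from -0.51 to -0.19 (Havcr1), -0.37 to -0.01 (Lcn2), -0.37 to -0.11 (Spp1), -0.31 to -0.11 (Cd44), 0.32 to 0.75 (Krt19) and -0.49 to -0.24 (Vim), and between the routes from 0.03 to 0.34 (Vcam1) and 0.43 to 0.78 (Krt19). The slopes of Sox9 and Krt19 ranged from 0.08 to 0.23 and from -0.20 to -0.04. No paired analysis was possible because the groups share no animal number. The SE of the markers' log2 changes ran from 0.13 to 0.39. In simulated counts for i.v. ASC against untreated 76 of 99 log2 changes of 1 were recovered and smaller ones were not simulated, so a marker that did not pass is not shown to be unchanged.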
